A study of Homo sapiens with 8 samples.

Results

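Decorin (DCN) and 7 other small leucine-rich proteoglycans, biglycan (BGN), lumican (LUM), fibromodulin (FMOD), osteoglycin (OGN), asporin (ASPN), PRELP and podocan (PODN), were followed in neuroblastoma cells with and without TRPM7 shRNA. Every probe that carried one of these 8 symbols was taken, which gave 14 of the 47322 probes on the array and 8 of its 31426 gene symbols. The group was picked from the readout: DCN was chosen by its opposite changes with TRPM7 shRNA in both cell lines, so the TRPM7 shRNA values of DCN are given as a description with no test. The other 7 genes were taken as its relatives and not for their own values, but with results of the same comparisons known, and their p-values are printed as the output of the fit.

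The study asked what the ion channel and kinase TRPM7 does for the gene expression program of neuroblastoma cells, and used Illumina HumanHT-12 v4 bead arrays on total RNA. The SH-SY5Y cells, labelled neuroblastic, and the SH-EP2 cells, labelled epithelial-like, are human sublines known to derive from the SK-N-SH neuroblastoma culture, so that each cell line stands for 1 clone. Both were transduced with lentivirus that carried either a TRPM7 shRNA or, in the control cells, a scrambled shRNA. The labels give the same serum-containing medium for all arrays, while the study's methods give a different medium for each line, so that cell line and medium cannot be told apart in comparisons between the lines. The 4 groups were SH-EP2 control, SH-EP2 TRPM7 shRNA, SH-SY5Y control and SH-SY5Y TRPM7 shRNA cells, with 2 arrays each. The arrays were made in duplo, and since neither labels nor methods say whether these were separate cultures, p-values measure only the spread between these arrays, which may be technical.

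Small leucine-rich proteoglycans are secreted proteins with a curved core of leucine-rich repeats that bind collagen fibrils and set their diameter and spacing. Decorin, biglycan, lumican and several others also carry chondroitin, dermatan or keratan sulfate chains, and decorin and biglycan bind TGF-beta and cell surface receptors. They are typical products of fibroblasts and other connective tissue cells, and in tumours they are mostly known from the stroma.

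Bead signals are fluorescence intensities on a linear scale, and a probe was called detected on an array at a detection p under 0.05, as the scanner software computes it against negative control beads. Levels below are log2 signals after background correction and quantile normalization over the 8 arrays, given as mean ± SD of 2 arrays, and changes are differences of these means with the standard error (SE) of limma's fit. Between 40.8% and 44.2% of the probes were detected per array, median bead signals lay between 105 and 120, and replicate arrays correlated with r between 0.981 and 0.985 across probes. The only TRPM7 probe had signals of 108 to 119, which no array detected, so that the knockdown could not be checked here. Of 12 noradrenergic neuroblastoma markers, 11 were lower in SH-EP2 than in SH-SY5Y control cells and 0 higher, and of 12 mesenchymal markers 10 were higher and 2, TWIST1 and VIM, lower. Of all genes, 14.2% were called higher and 15.9% lower in this comparison at an adjusted p under 0.05. Among genes detected on both arrays of either group, 61.8% were called in one direction or the other. In bulk RNA, fewer cells that express a gene and less RNA per cell cannot be told apart.

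DCN was detected in both cell lines, went up in SH-SY5Y TRPM7 shRNA cells and went down in SH-EP2 TRPM7 shRNA cells. Its brightest probe, ILMN_2347145, had bead signals of 1647 and 1237 in SH-SY5Y control cells and of 3205 and 3522 in SH-SY5Y TRPM7 shRNA cells. In SH-EP2 cells, the same probe had signals of 589 and 506 in control and of 194 and 222 in TRPM7 shRNA cells. Signals of control and TRPM7 shRNA arrays did not overlap in either line. On the log2 scale, the levels were 10.47 ± 0.0045 in SH-SY5Y control, 11.58 ± 0.0087 in SH-SY5Y TRPM7 shRNA, 8.78 ± 0.078 in SH-EP2 control and 6.54 ± 0.33 in SH-EP2 TRPM7 shRNA cells. This was an increase of 1.12 (SE 0.12) on the log2 scale or 2.17-fold in SH-SY5Y cells, and a change of -2.23 (SE 0.12) or 4.71-fold lower in SH-EP2 cells. The size in SH-EP2 cells depended on the background correction and was -1.41 without it.

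The second detected DCN probe, ILMN_1683194, had lower signals and the same order of the 4 groups. Its bead signals were 299 and 289 in SH-SY5Y control cells and 632 and 562 in SH-SY5Y TRPM7 shRNA cells, a change of 1.14 (SE 0.24) or 2.21-fold. In SH-EP2 control cells it was detected at 164 and 140, and in SH-EP2 TRPM7 shRNA cells its signals of 116 and 115 were not detected. Its decrease there therefore has only a bound, at least 4.34-fold lower, which sets the mean of the control arrays against the lowest signals that are still detected on the TRPM7 shRNA arrays. This bound holds only for background-corrected signals, and the fitted change was -0.46 without background correction. The third probe, ILMN_1768227, was not detected on any array, with detection p-values of 0.0519 to 0.992, and gives no information on DCN. The effects in both lines differed by 3.35 and 4.04 on the log2 scale at the detected probes, a difference that is the ground on which DCN was chosen. The value of 4.04 includes the undetected signals of SH-EP2 TRPM7 shRNA cells.

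**Figure D1:**
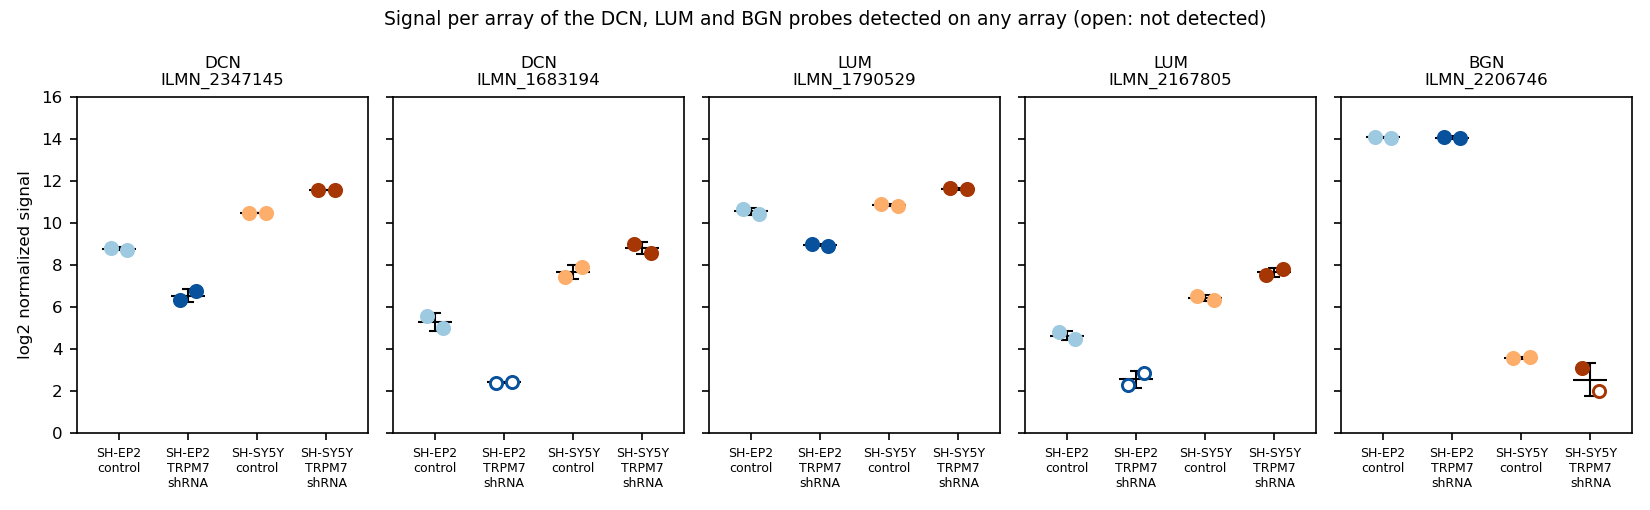
Log2 normalized signal (vertical axis) of the 2 detected DCN probes, both LUM probes and the BGN probe on each of the 8 arrays, by group; points are arrays, open points were not detected, and bars are the mean ± SD of 2 arrays. DCN and LUM are highest in SH-SY5Y TRPM7 shRNA cells and lowest in SH-EP2 TRPM7 shRNA cells, while BGN sits near 14.1 in all SH-EP2 arrays and between 1.99 and 3.62 in SH-SY5Y arrays.

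Between the control cells, DCN was lower in SH-EP2 than in SH-SY5Y cells. The difference was -1.69 (SE 0.12) or 3.22-fold at ILMN_2347145 and -2.36 (SE 0.24) or 5.14-fold at ILMN_1683194, and ranged from -1.74 to -1.47 and from -2.66 to -1.04 over the alternatives. It is a description as well, since the control arrays entered the changes by which DCN was chosen. Differences between the control cells were common on these arrays, where 14.2% of all genes were called higher and 15.9% lower in SH-EP2 cells, and 61.8% of the 14859 genes that were detected on both arrays of either group were called in one direction or the other. The order of DCN levels was thus SH-SY5Y TRPM7 shRNA, SH-SY5Y control, SH-EP2 control and SH-EP2 TRPM7 shRNA cells, and neighbours in that order were further apart than the SD of either group at both detected probes.

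LUM, which binds collagen fibrils as decorin does and itself carries keratan sulfate in some tissues, had the same order of the groups as DCN. Its brighter probe, ILMN_1790529, had bead signals of 2174 and 1549 in SH-SY5Y control and of 3430 and 3586 in SH-SY5Y TRPM7 shRNA cells. In SH-EP2 cells, it had signals of 1794 and 1435 in control and of 631 and 598 in TRPM7 shRNA cells. All 8 arrays detected this probe, and control and TRPM7 shRNA arrays did not overlap in either line. Levels rose from 10.87 ± 0.055 to 11.64 ± 0.041 in SH-SY5Y cells, a change of 0.78 (SE 0.090) or 1.71-fold (limma, adjusted p = 2.22e-05). In SH-EP2 cells, they fell from 10.56 ± 0.15 to 8.96 ± 0.064, a change of -1.60 (SE 0.090) or 3.03-fold lower (adjusted p = 1.64e-09). The effect differed between the lines by 2.38 (SE 0.13, adjusted p = 1.09e-09). Without an intensity trend in the estimate of the spread, the change in SH-SY5Y cells and the difference between the lines were no longer called (adjusted p = 0.218 and 0.0536), and the decrease in SH-EP2 cells still was (adjusted p = 0.0331).

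The second LUM probe, ILMN_2167805, moved the same way at much lower signals. In SH-SY5Y cells, it had signals of 212 and 167 in control and of 306 and 379 in TRPM7 shRNA cells, a change of 1.23 (SE 0.27, adjusted p = 0.0143). This call was lost without SH-SY5Y control replicate 2 and without either SH-SY5Y TRPM7 shRNA array, with adjusted p-values up to 0.205 and changes of 1.09 to 1.38. In SH-EP2 cells, signals of 143 and 132 in control cells were followed by 115 and 120 in TRPM7 shRNA cells, which were not detected. LUM was there at least 2.76-fold lower by this probe, and the fitted change of -2.08 (adjusted p = 7.08e-05) was -0.29 without background correction. The effect differed between the lines by 3.32 (adjusted p = 3.01e-05), or by 0.95 without background correction. Without the intensity trend, none of these calls was made at this probe (adjusted p = 0.208 in SH-SY5Y cells, 0.0507 in SH-EP2 cells and 0.0600 for the difference).

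In contrast to DCN, LUM differed little between the control cells at its brighter probe. The difference between SH-EP2 and SH-SY5Y control cells was -0.30 (SE 0.090, adjusted p = 0.0149) at ILMN_1790529, and the call was lost without the intensity trend (adjusted p = 0.283), without SH-EP2 control replicate 2 (-0.19, adjusted p = 0.264) and without SH-SY5Y control replicate 1 (-0.26, adjusted p = 0.0907). ILMN_2167805 gave -1.79 (SE 0.27, adjusted p = 1.82e-05), at signals of 143 and 132 in SH-EP2 control cells. Over the alternatives, its difference ranged from -1.94 to -0.53. The probes of LUM thus disagreed on the size of this difference and not on its sign.

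BGN separated the cell lines and hardly moved with TRPM7 shRNA where it was bright. Its only probe, ILMN_2206746, had bead signals of 17988 and 17065 in SH-EP2 control and of 19642 and 18311 in SH-EP2 TRPM7 shRNA cells. In SH-SY5Y cells, signals were 121 and 112 in control and 121 and 108 in TRPM7 shRNA cells, and 3 of these 4 arrays detected it. The control cells differed by 10.50 (SE 0.21) on the log2 scale (limma, adjusted p = 1.38e-18), or by 7.14 without background correction, so that the fold is large under every setting while its size depends on signals next to the background in SH-SY5Y cells. In SH-EP2 cells, the change with TRPM7 shRNA was -0.0044, with a 95% confidence interval from -0.44 to 0.43 (adjusted p = 0.997). This interval uses the spread shared by all 4 groups. SDs were 0.0047 and 0.056 in SH-EP2 control and TRPM7 shRNA cells, and 0.048 and 0.77 in those of SH-SY5Y. In SH-SY5Y cells, the fit gave -1.05 (SE 0.21, adjusted p = 0.00719), but signals overlapped between the groups before normalization. This value ranged from -1.61 without SH-SY5Y TRPM7 shRNA replicate 1 to -0.50 without replicate 2, and the call was lost without SH-SY5Y control replicate 2 (adjusted p = 0.0694), when SH-SY5Y arrays were fitted alone (adjusted p = 0.524) and without background correction (-0.14, adjusted p = 0.546).

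Biglycan is a close relative of decorin and carries glycosaminoglycan chains on its N-terminal end. The 250 bases upstream of its start are shown here because BGN holds the widest gap between the lines among the 8 genes. They lie at chrX:153494730-153494979 on the + strand of GRCh38.p14 and were taken from RefSeq, whose promoter table matched 6 of the 8 genes (BGN, FMOD, OGN, ASPN, PRELP and PODN). Capitals mark the GC box letters GGGCGG or, on the other strand, CCGCCC.
BGN: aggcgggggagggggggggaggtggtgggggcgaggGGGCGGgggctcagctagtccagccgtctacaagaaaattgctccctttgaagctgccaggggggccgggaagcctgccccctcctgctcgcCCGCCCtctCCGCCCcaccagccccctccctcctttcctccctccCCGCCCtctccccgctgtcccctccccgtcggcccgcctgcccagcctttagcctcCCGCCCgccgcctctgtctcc
This stretch held 5 such matches, which do not overlap each other, and 74% of its bases were G or C. Of all 35116 promoter stretches of this length, 42.6% held the motif at least once. The letters TATAAA, found in 10.7% of the stretches on either strand, were not in this window. A match of letters is no measurement of factor binding.

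FMOD, OGN, ASPN, PRELP and PODN, which were looked for with 8 probes, lay at the background. FMOD was detected on 1 of 8 arrays, OGN in 1 of 24 and PODN in 3 of 8 probe readings, and ASPN and PRELP on no array. Bead signals of these probes lay between 92.4 and 124, and none was detected on both arrays of any group. No direction can be read from such signals, and the fit called none of these probes in any comparison. Leaving out SH-SY5Y control replicate 1 made the OGN probe ILMN_1790098 pass in SH-SY5Y cells (-2.16, adjusted p = 0.0148) and between control cells (-1.79, adjusted p = 0.00531), at a signal that was detected on 1 array.

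**Figure D2:**
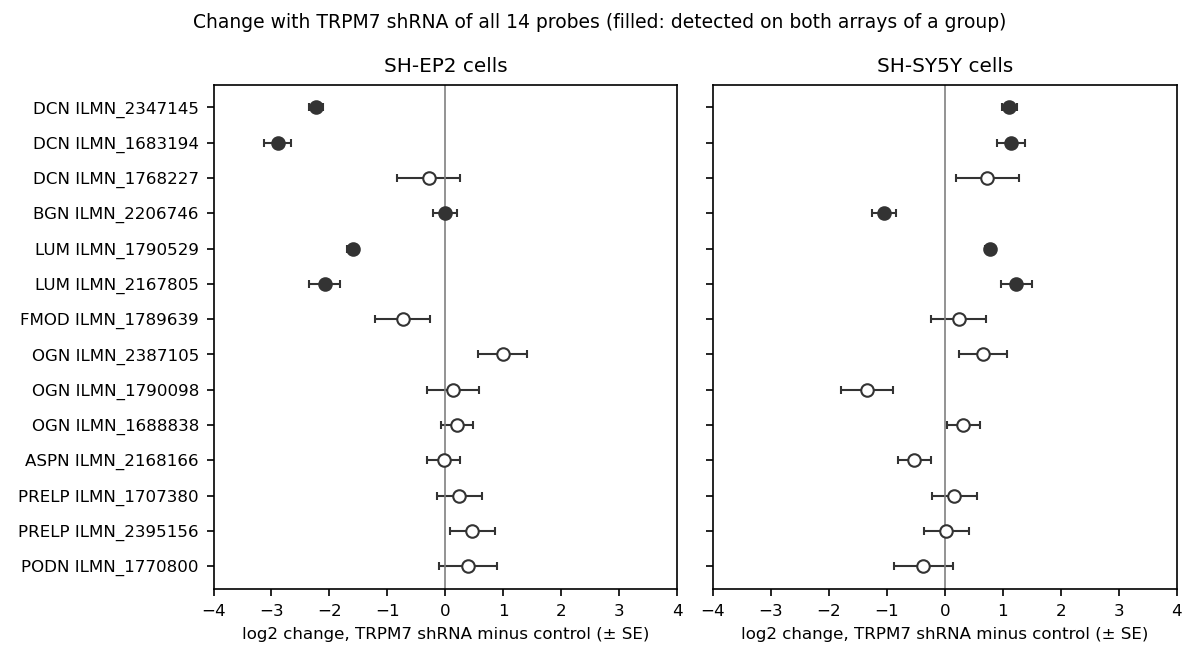
Log2 change with TRPM7 shRNA (horizontal axis, ± SE of the fit) of all 14 probes in SH-EP2 and SH-SY5Y cells; filled points were detected on both arrays of at least 1 of the compared groups. The detected DCN and LUM probes lie left of 0 in SH-EP2 and right of 0 in SH-SY5Y cells, and BGN is at -0.0044 in SH-EP2 cells.

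Counted by gene, with the brightest probe of each, 1 of the 7 genes other than DCN was up regulated (LUM) and 1 down regulated (BGN, with the limits above) in SH-SY5Y TRPM7 shRNA cells. Of all genes, 0.999% were called higher and 1.57% lower in this comparison, and 5.51% of the 14396 genes detected on both arrays of either group were called. With median scaling of the arrays, the calls over all genes leaned the other way, to 67.5% higher in place of 38.9%, while DCN (1.22) and LUM (0.90) stayed higher. In SH-EP2 TRPM7 shRNA cells, 0 of the 7 genes were higher and 1 (LUM) lower, against 1.82% and 1.85% of all genes and 8.17% of the 13974 detected genes. Beside this count of 0, 1 gene (OGN, at a probe not detected on any array) was higher at an unadjusted p under 0.05. Between the control cells, 1 of the 7 genes was higher in SH-EP2 cells (BGN) and 1 lower (LUM), and the effect of TRPM7 shRNA differed between the lines for 1 of 7 genes (LUM), against 1.78% of all genes.

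DCN and LUM are neighbours on chromosome 12, where the RefSeq order of protein-coding genes runs EPYC, KERA, LUM, DCN, BTG1. This was looked up after the values had been seen. EPYC, a proteoglycan of cartilage, was not detected, and KERA, the keratan sulfate proteoglycan of the cornea, was detected on 1 of 8 arrays. BTG1, an antiproliferative gene on the other side of DCN, was detected on all 8 arrays and changed by 0.20 (adjusted p = 0.454) in SH-SY5Y and by 0.16 (adjusted p = 0.534) in SH-EP2 cells. OGN and ASPN on chromosome 9 flank OMD, and all of them were undetected at their brightest probes, but ECM2, next to ASPN, was detected in SH-EP2 cells alone. FMOD and PRELP are neighbours on chromosome 1 and both lay at the background.

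Over the 8 arrays, the gene most like the brighter DCN probe was LUM, whose probe ILMN_2167805 had a Pearson r of 0.998 among 17288 genes, while its brighter probe ILMN_1790529 had 0.972. LEF1 (r = 0.996), a transcription factor of the Wnt pathway, TUBA1A (0.995), an alpha-tubulin, CACNB3 (0.990), a calcium channel subunit, and the zinc finger gene ZNF83 (0.990) followed. For the second DCN probe, the genes were NUSAP1 (0.998) and MELK (0.993), which act in mitosis, LEF1 (0.996), the NF-kB kinase gene CHUK (0.995) and TUBA1A (0.993), and LUM was not among the first 5 (0.989 and 0.969 at its probes). LEF1 changed by 0.68 in SH-SY5Y and by -2.13 in SH-EP2 cells, where its TRPM7 shRNA arrays did not detect it. The others besides LUM had smaller changes than DCN, of 0.028 to 0.22 in SH-SY5Y and of -0.51 to -0.11 in SH-EP2 cells. All these genes were picked by their r with DCN, so that a shared order of the groups is no separate result. These r values describe 8 points that fall into 4 groups and carry no p.

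The other small leucine-rich proteoglycan genes were mostly silent. Of 9 such genes (KERA, EPYC, OPTC, OMD, NYX, CHAD, TSKU, PODNL1 and ECM2), none passed with TRPM7 shRNA in either line, with limma and under every alternative, and at an unadjusted p under 0.05 there were 0 in SH-SY5Y and 2 in SH-EP2 cells. Their median change was -0.21 in SH-SY5Y and 0.013 in SH-EP2 cells, beside 0.0034 and 0.010 over all genes. TSKU (tsukushi) was detected on all 8 arrays at bead signals of 421 to 685. ECM2 was at least 4.20-fold higher in SH-EP2 than in SH-SY5Y control cells (adjusted p of the fitted difference = 3.16e-06) and was the only gene of the 9 to pass there.

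Among 28 genes that build and sulfate glycosaminoglycan chains, 2 rose and 1 fell in SH-SY5Y TRPM7 shRNA cells, and 0 rose and 3 fell in SH-EP2 TRPM7 shRNA cells. CHST15, which adds a second sulfate to chondroitin, rose by 2.67 (SE 0.28) or 6.38-fold in SH-SY5Y cells (adjusted p = 6.09e-06), from signals of 184 to 223 in control to 786 to 851 in TRPM7 shRNA cells. It was not detected in SH-EP2 cells. CHST13 (1.74), a chondroitin 4-sulfotransferase, lost its call without SH-SY5Y control replicate 2 (1.26, adjusted p = 0.116) and without either SH-SY5Y TRPM7 shRNA array. It was also lost with other background corrections (0.80 with neqc, 0.37 with normexp and offset 50), without background correction (0.24, adjusted p = 0.0689) and with SH-SY5Y arrays alone. ACPL2 (-0.77), the gene of the xylose phosphatase now named PXYLP1, lost its call without the same arrays (adjusted p up to 0.146). In SH-EP2 cells, the chondroitin polymerizing factor CHPF (-0.73) and the sulfotransferase CHST3 (-0.60) fell, as did the galactosyltransferase B4GALT4 (-0.49). Each of these 3 calls was lost when any 1 of the 4 SH-EP2 arrays was left out (adjusted p = 0.0625 to 0.305). At an unadjusted p under 0.05, 2 genes of the list were higher in SH-EP2 TRPM7 shRNA cells. Between control cells, 11 of the 28 genes were higher and 6 lower in SH-EP2 cells, and 24 were detected on both arrays of either group. Of all genes, 61.8% of those so detected were called, and 14.2% of all were higher and 15.9% lower in SH-EP2 cells. CHSY3, a chondroitin synthase, was at least 39.8-fold higher there, and XYLT1, which starts the chain by placing xylose on the core protein, was at least 6.36-fold lower.

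Of 20 ligands and receptors that small leucine-rich proteoglycans are known to bind or act on, 0 were higher and 3 lower in SH-SY5Y TRPM7 shRNA cells, and 3 were higher and 2 lower in SH-EP2 TRPM7 shRNA cells. PDGFRA, a receptor tyrosine kinase, moved opposite to DCN: it fell by 0.91 on the log2 scale in SH-SY5Y cells (adjusted p = 0.000637) and changed by 0.64 in SH-EP2 cells (adjusted p = 0.0124). The latter call was lost without SH-EP2 control replicate 1 and without SH-EP2 TRPM7 shRNA replicate 2 (adjusted p = 0.137 and 0.169). TGFB3, a TGF-beta ligand, had -1.32 in SH-SY5Y cells (adjusted p = 0.00195), and -1.05 without SH-SY5Y TRPM7 shRNA replicate 1 (adjusted p = 0.0525). VEGFA had -1.16 there, and its call was lost in 5 of the 8 fits that left out an array, with -0.58 (adjusted p = 0.409) without SH-SY5Y control replicate 2. No gene of the list was higher at an unadjusted p under 0.05 in SH-SY5Y cells either. In SH-EP2 cells, ITGA2, the collagen-binding integrin chain, rose by 1.49 (SE 0.21) or 2.80-fold (adjusted p = 0.000218). The TGF-beta receptor TGFBR2 (0.58), TGFB2 (-1.23) and the matricellular gene CTGF (-0.79) lost their calls when any 1 of the 4 SH-EP2 arrays was left out, with adjusted p-values of 0.0950 to 0.346. Between control cells, 9 of the 20 were higher and 4 lower in SH-EP2 cells. Of the 20, 14 were detected on both arrays of either group, and 61.8% of all such genes were called. Among those higher were CTGF (7.72), the growth factor gene BMP4 (5.26) and the receptor gene MET (3.30) on the log2 scale, and TGFB2 at least 26.4-fold. Lower were PDGFRA by -3.52, the receptor gene EGFR by -1.56 and TGFB3 by -1.23, and ERBB2 at least 2.58-fold.

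Fibrillar and associated collagens, on whose fibrils decorin and lumican sit, fell in part with them in SH-EP2 cells. Of 12 collagen genes, 0 were higher and 3 lower in SH-EP2 TRPM7 shRNA cells, none being higher at an unadjusted p under 0.05, and 1 was higher and 2 lower in SH-SY5Y TRPM7 shRNA cells. COL1A2 fell from signals of 2688 to 2928 to signals of 1001 to 1077 in SH-EP2 cells, a change of -1.56 (SE 0.27, adjusted p = 0.0015), and was at the background in SH-SY5Y cells. COL1A1 (-0.56) fell less, and its call was lost without either SH-EP2 control array and without SH-EP2 TRPM7 shRNA replicate 2 (adjusted p = 0.0569 to 0.107). COL5A1 fell by 0.70 in SH-SY5Y cells (adjusted p = 6.00e-05) and by 0.41 in SH-EP2 cells, where the call was lost without any 1 of the 4 SH-EP2 arrays (adjusted p up to 0.190). COL6A2 (-0.66) and COL12A1 (at least 1.88-fold higher) passed in SH-SY5Y cells, but COL12A1 kept its call in 1 of 8 fits that left out an array (adjusted p up to 0.463), and COL6A2 lost it without either control array or TRPM7 shRNA replicate 1 (adjusted p up to 0.186). Between control cells, 8 of the 12 were higher and 0 lower in SH-EP2 cells, also at an unadjusted p under 0.05. Of the 12, 8 were detected on both arrays of either group, and 61.8% of all such genes were called in either direction. COL1A2 differed by 8.46, COL1A1 by 6.51 and COL5A2 by 9.42 on the log2 scale, and COL6A3, a chain of collagen VI, was at least 61.5-fold higher. DCN was thus lower and BGN higher in the line with the higher collagen signals. LUM was lower there by only -0.30 at its brighter probe, with the limits given above.

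Enzymes that process these proteoglycans and collagens were down regulated in part in SH-EP2 TRPM7 shRNA cells, with 5 of 18 lower and 0 higher (1 at an unadjusted p under 0.05). ADAMTS5, a protease that cleaves proteoglycan core proteins, was at least 7.01-fold lower and not detected after TRPM7 shRNA, with a fitted change of -4.03 (adjusted p = 2.81e-05). LOXL3 (-1.16, adjusted p = 0.000739), LOX (-1.15, adjusted p = 0.00461) and the secreted protease HTRA1 (-0.60, adjusted p = 0.000686) followed, as did BMP1 (-0.49, adjusted p = 0.0338), the protease that trims the pro-forms of several of these proteoglycans, which is named after its value was seen. BMP1 lost its call without any 1 of the 4 SH-EP2 arrays (adjusted p = 0.138 to 0.322), and 3 of the 5 genes passed without SH-EP2 control replicate 1. LOX, which crosslinks collagen, lost its SH-EP2 call without either SH-EP2 control array and without SH-EP2 TRPM7 shRNA replicate 2 (adjusted p = 0.0518 to 0.107). In SH-SY5Y TRPM7 shRNA cells, 1 of the 18 was higher and 1 lower. LOX was at least 3.30-fold higher, and its fitted change was 1.75 (adjusted p = 8.15e-05, or adjusted p = 0.0851 without background correction). HTRA1 had -1.05 (adjusted p = 1.02e-06). Between control cells, 9 of the 18 were higher and 1, LOXL4, lower in SH-EP2 cells, with LOX at least 102-fold and LOXL1 at least 40.7-fold higher. LOXL4 was not detected in SH-EP2 control cells and was at least 2.84-fold lower there, and its call was lost without SH-SY5Y control replicate 1. Of the 18, 13 were detected on both arrays of either control group, and 61.8% of all such genes were called between the control cells. With TRPM7 shRNA, LOX shared the directions of DCN and LUM, and its effect differed between the lines by 2.90 (adjusted p = 2.05e-05). LOX was not detected in SH-SY5Y control cells, so that this difference holds fitted values at the background.

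Other proteoglycan core proteins moved in both directions. In SH-SY5Y TRPM7 shRNA cells, 5 of 25 were higher and 1 lower, and in SH-EP2 TRPM7 shRNA cells 3 were higher and 2 lower. The glypican GPC3, a heparan sulfate proteoglycan held in the membrane by a lipid anchor, rose from signals of 224 to 270 to signals of 922 to 1138 in SH-SY5Y cells, a change of 2.50 (SE 0.31) or 5.65-fold (adjusted p = 4.99e-05). The syndecan SDC2 had the directions of DCN, with 0.63 in SH-SY5Y (adjusted p = 0.0071; adjusted p = 0.0512 without SH-SY5Y TRPM7 shRNA replicate 2) and -1.41 in SH-EP2 cells (adjusted p = 9.11e-07). Versican (VCAN), a large chondroitin sulfate proteoglycan, had -0.88 in SH-EP2 cells (adjusted p = 7.23e-05) and 0.59 in SH-SY5Y cells (adjusted p = 0.00479; adjusted p = 0.0991 without SH-SY5Y TRPM7 shRNA replicate 1), the latter named after its value was seen. CSPG5 (1.80) and GPC4 (1.47) passed in SH-SY5Y cells, and their calls were lost without SH-SY5Y control replicate 2 and without either SH-SY5Y TRPM7 shRNA array, that of CSPG5 also without control replicate 1 (adjusted p up to 0.278). GPC4 had 0.65 (adjusted p = 0.124) without control replicate 2. GPC6 (-0.86) fell there, with adjusted p = 0.0667 without TRPM7 shRNA replicate 1. In SH-EP2 cells, the syndecan SDC1 rose by 0.86 (adjusted p = 7.58e-06). SPOCK2 (1.46) had 0.84 without SH-EP2 control replicate 1 (adjusted p = 0.258) and lost its call also without TRPM7 shRNA replicate 2 (adjusted p = 0.221), and SDC4 (0.86) lost its call without any 1 of the 4 SH-EP2 arrays (adjusted p = 0.138 to 0.354). Between control cells, 10 of the 25 were higher and 6 lower in SH-EP2 cells, with serglycin (SRGN) at least 274-fold higher, GPC2 lower by a difference of -4.06 and GPC3 by -4.04. Of the 25, 18 were detected on both arrays of either control group, and 61.8% of all such genes were called.

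Of all genes detected on both arrays of either group, 5.51% were called in SH-SY5Y and 8.17% in SH-EP2 TRPM7 shRNA cells. These shares stand beside the counts of the lists above and of the markers below. Over the 6 lists above, the calls with TRPM7 shRNA rested on the intensity trend in the spread. Without it, 1 gene of the chain synthesis list (CHST15) passed in SH-SY5Y cells and 1 processing enzyme (ADAMTS5) in SH-EP2 cells, and the counts of the other lists were 0 in both directions. With median scaling, the signs of the named genes were the same, and the calls lost were those of ACPL2, VEGFA, COL6A2 and GPC6 in SH-SY5Y cells and of B4GALT4, TGFBR2, TGFB2, CTGF, COL5A1 and BMP1 in SH-EP2 cells. Another background setting or the fit of a line alone also ended the calls of CHST13, VEGFA, COL12A1, COL6A2, CSPG5, GPC4 and LOX in SH-SY5Y cells and of PDGFRA and SPOCK2 in SH-EP2 cells.

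**Figure D3:**
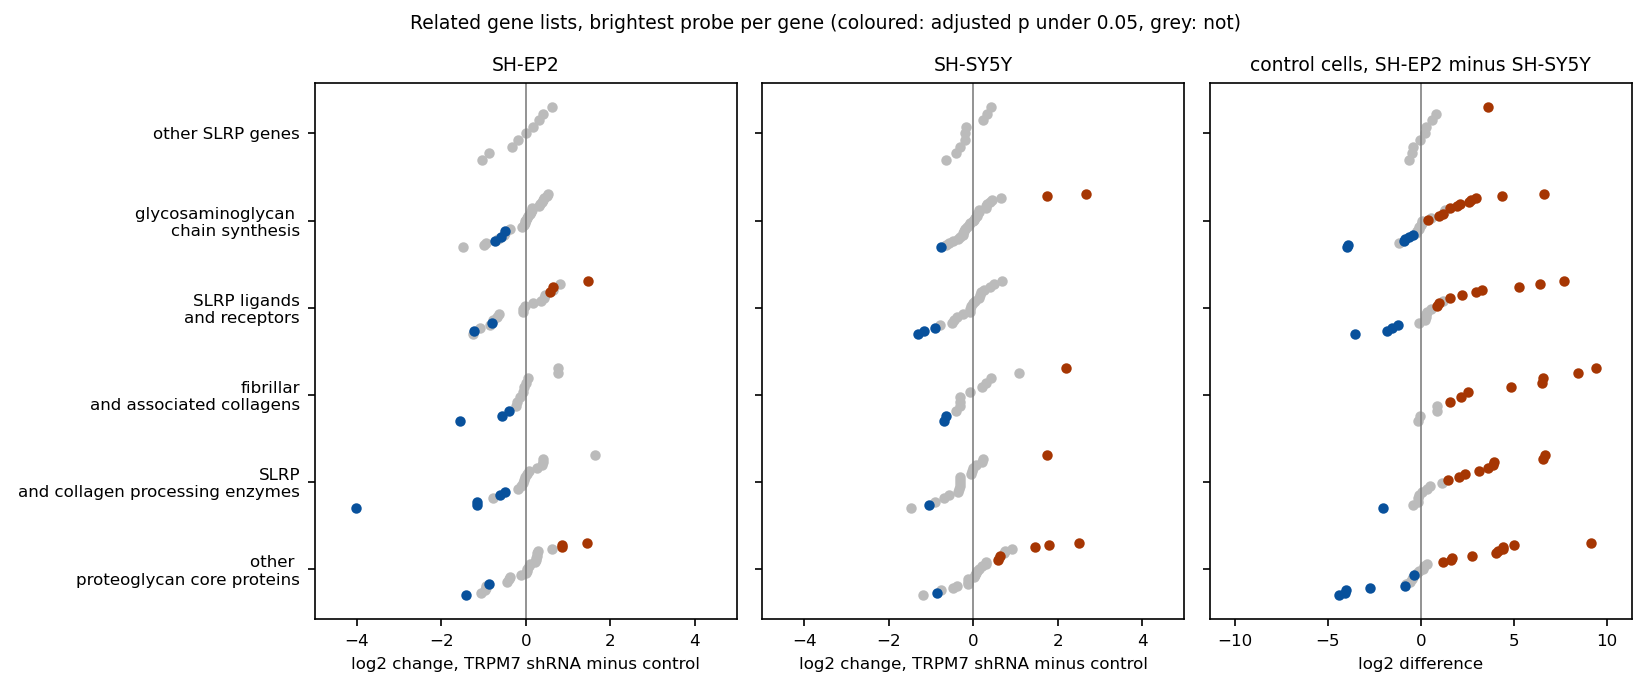
Log2 change with TRPM7 shRNA in SH-EP2 and SH-SY5Y cells, and log2 difference between the control cells (horizontal axes), for each gene of 6 related lists by its brightest probe; red and blue points passed an adjusted p under 0.05 upward and downward, grey points did not. With TRPM7 shRNA most genes stay near 0, while between the control cells 8 of 12 collagens and 9 of 18 processing enzymes are higher in SH-EP2 cells. Of all genes, 14.2% were called higher and 15.9% lower in that comparison.

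Some markers of fibroblasts, the usual source of decorin and lumican, were lower in SH-EP2 TRPM7 shRNA cells, where DCN was lower too. Of 10 such markers, 5 were lower in SH-EP2 TRPM7 shRNA cells (COL1A2, COL1A1, POSTN, THY1 and, named after its value was seen, PDGFRB) and 1 higher (PDGFRA), and their summed bead signal was 26559 and 29138 in control and 21662 and 22009 in TRPM7 shRNA cells. The count of 5 was 0 without the intensity trend and 2 without SH-EP2 control replicate 2, COL1A2 and POSTN keeping their calls in every fit that left out an array. In SH-SY5Y cells, where DCN rose, 0 of the 10 were higher (1 at an unadjusted p under 0.05, and 1 by adjusted p with median scaling) and 2 lower (PDGFRA and S100A4), and the summed signals of 4903 and 5185 with TRPM7 shRNA lay within those of 4076 and 5535 in control cells. TCF21 was not detected on any array, POSTN on no SH-SY5Y array, and FAP and COL1A2 on 1 SH-SY5Y array. Of the mesenchymal markers, SNAI2 and VIM were lower in SH-SY5Y TRPM7 shRNA cells and SNAI2 and TWIST1 in SH-EP2 TRPM7 shRNA cells, where CD44 was higher. SNAI2 kept its calls when any 1 array was left out, and VIM, TWIST1 and CD44 lost theirs in 2, 3 and 4 of the 8 fits (adjusted p up to 0.151, 0.183 and 0.230). Without the intensity trend, only SNAI2 in SH-SY5Y cells was still called among these mesenchymal markers. Median scaling ended the calls of VIM (limma, adjusted p = 0.273) and CD44 (adjusted p = 0.105). Of the noradrenergic markers, DBH, STMN2 and ISL1 were lower in SH-SY5Y TRPM7 shRNA cells, and in SH-EP2 TRPM7 shRNA cells GATA2 and, named after its value was seen, CHGA were lower and CHGB higher. DBH kept its call when any 1 array was left out, while STMN2 lost it in 4 fits and ISL1 in 3 (adjusted p up to 0.254 and 0.169). In SH-EP2 cells, CHGA lost its call in all 8 fits, GATA2 in 3 (-0.44, adjusted p = 0.314 without TRPM7 shRNA replicate 2) and CHGB in 2 (0.54, adjusted p = 0.233 without TRPM7 shRNA replicate 1). Without the intensity trend, the count of these markers called was 0 in either line, and with median scaling 1 was lower in SH-SY5Y cells. Of 8 Schwann cell markers none passed with TRPM7 shRNA in either line, also at an unadjusted p under 0.05, and SOX10, S100B, CDH19 and FOXD3 were not detected on any array. The part of these markers in the DCN and LUM values was not tested.

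**Figure D4:**
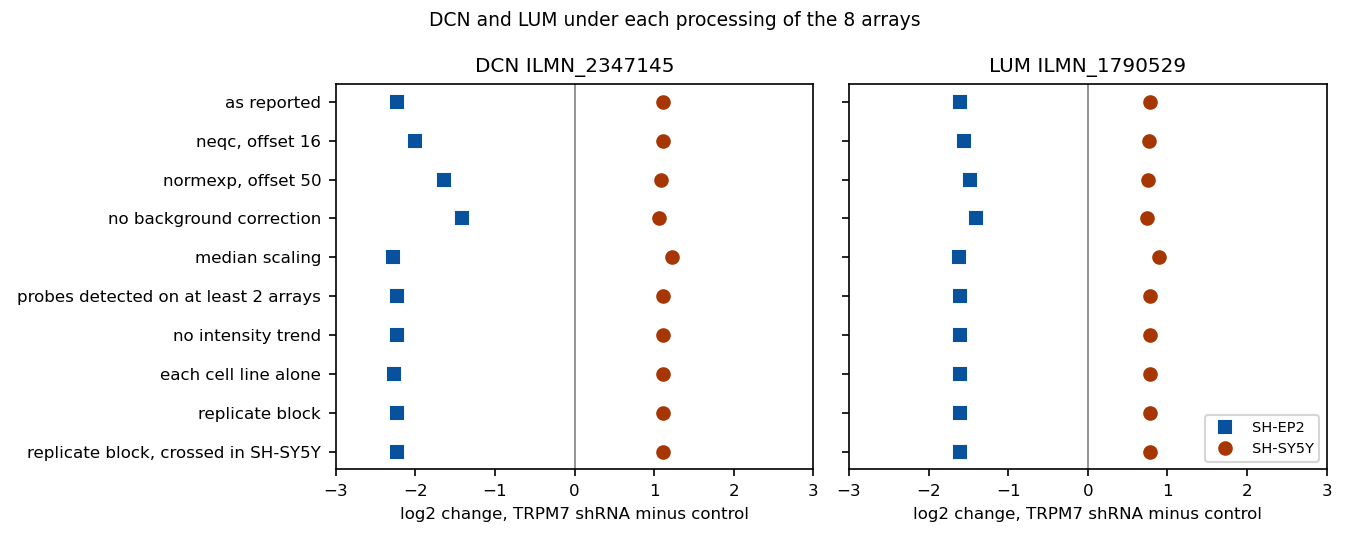
Log2 change with TRPM7 shRNA (horizontal axis) of the brightest DCN and LUM probes under each processing of the 8 arrays (rows); squares are SH-EP2 and circles SH-SY5Y cells. Every setting shown keeps both signs, and DCN in SH-EP2 cells moves from -2.23 as reported to -1.41 without background correction.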

How the data were processed

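Gene expression was measured on 8 Illumina HumanHT-12 v4 arrays, 2 for each of 4 groups. The deposited table holds bead signal intensities per probe that the authors exported from GenomeStudio (version 2011.1 per the labels) without normalization, and the authors also deposited a detection p-value for each intensity. The study's methods name RMA normalization and no test. The RMA background model was therefore applied, followed by quantile normalization across 8 arrays and a log2 transform. limma 3.58.1 (R 4.3.3; lmFit, eBayes with an intensity trend) was fitted to 4 groups over all 47322 probes, with Benjamini-Hochberg adjustment over all of them and calls at an adjusted p under 0.05. A gene is counted by its brightest probe on average (mean of 8 arrays). A group not detected (detection p under 0.05) on both arrays has only a bound: the mean of the brighter group against, per array, the higher of the probe's own signal and the lowest detected signal. Every such bound is on background-corrected signals and can be smaller under other background settings. An adjusted p beside a bound belongs to the fitted change, which includes the undetected signals, and does not test the bound. Files give no counts, so that precision is limited by the number of arrays. The fit had 18.9 degrees of freedom in total, and its spread is shared by all 4 groups.

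Related lists (other small leucine-rich proteoglycans, glycosaminoglycan synthesis, ligands and receptors, collagens, processing enzymes, other proteoglycans, and noradrenergic, mesenchymal, fibroblast and Schwann cell markers) held 154 gene entries, 2 of them matched by an older symbol (ACPL2 for PXYLP1, CTGF for CCN2). Members and lists were chosen with earlier results of these data known. Named list genes were those past the threshold and detected on both arrays of the brighter group, at most 4 by size per list and direction, unless said otherwise, and the 5 genes with the highest Pearson r to each detected DCN probe. Code was tested on simulated data. Alternatives were 3 other background settings, median scaling, a detection filter, no intensity trend, each line alone, replicate blocks and leaving out each array. Replicate numbers did not pair samples: deviations of same-numbered arrays gave r of -0.00447 (SH-EP2) and -0.111 (SH-SY5Y) over 14577 probes.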

Additional observations from a re-analysis of the deposited data

Results flagged for a closer look

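The effect of TRPM7 shRNA differed between the cell lines at both detected DCN probes, by 3.35 (ILMN_2347145) and 4.04 (ILMN_1683194) on the log2 scale (SH-SY5Y minus SH-EP2), and this difference was not tested because DCN was chosen for it. LUM differed by 2.38 (limma, adjusted p = 1.09e-09) and 3.32 (adjusted p = 3.01e-05) at its probes. Genes of the related lists with a difference in the same direction were LOX (2.90, adjusted p = 2.05e-05), SDC2 (2.05, adjusted p = 1.07e-06), VCAN (1.47, adjusted p = 1.73e-05), CHST15 (3.32, adjusted p = 5.53e-05), ADAMTS5 (4.03, adjusted p = 0.0019), GPC3 (3.43, adjusted p = 0.000115), CSPG5 (2.76, adjusted p = 0.0206) and GPC4 (2.53, adjusted p = 0.00333). CHST15 was not detected in SH-EP2 cells, GPC3 on only 1 of 4 SH-EP2 arrays and ADAMTS5 not in SH-SY5Y cells, so that their differences hold fitted values at the background. The same holds for LOX, not detected in SH-SY5Y control cells, and for DCN ILMN_1683194 and LUM ILMN_2167805, not detected in SH-EP2 TRPM7 shRNA cells. Over the alternatives, the differences at these DCN and LUM probes went down to 1.28 and 0.95. The opposite direction was found for SPOCK2 (-2.64, adjusted p = 0.00331), ITGA2 (-1.94, adjusted p = 0.000907), PDGFRA (-1.55, adjusted p = 0.000127), SDC4 (-1.34, adjusted p = 0.039), TGFB3 (-1.30, adjusted p = 0.0492) and SDC1 (-0.99, adjusted p = 0.000158). Over all genes, 559 such differences were called, and 21 without the intensity trend. The limits given above for the changes of the list genes within each line apply to these differences too.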

How the results depend on the processing

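DCN at ILMN_2347145 kept its direction in each line under every alternative. Its change in SH-SY5Y cells of 1.12 became 1.10 with neqc, 1.08 with normexp and offset 50, 1.06 without background correction and 1.22 with median scaling, and 1.11 to 1.12 when each array was left out. In SH-EP2 cells, -2.23 became -2.00, -1.64 and -1.41 under the same background settings, and -2.46 to -2.00 without 1 array. The difference between the lines of 3.35 became 3.11, 2.72 and 2.47, and 3.50 with median scaling (3.12 to 3.57 without 1 array). The difference of -1.69 between control cells ranged from -1.74 to -1.63 without 1 array. DCN ILMN_1768227, at the background, ranged from -1.30 to 0.72 in SH-EP2 cells without 1 array (-0.28 with all), and turned to 0.72 without SH-EP2 control replicate 1 and to 0.25 without SH-EP2 TRPM7 shRNA replicate 2.

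Of all genes, 808 were called in SH-SY5Y cells, 55 without an intensity trend, and 497 to 773 without 1 array, lowest without SH-SY5Y TRPM7 shRNA replicate 1. In SH-EP2 cells, 1153 became 86 without the trend, 2082 with each line alone, and 565 to 1288 without 1 array, lowest without SH-EP2 control replicate 2. Between control cells, 9459 became 8147 to 9464 without 1 array. For the difference between the lines, 559 became 937 with normexp and offset 50, 1006 without background correction and 21 without the trend, and 337 to 538 without 1 array. The cause of these shifts was not tested.

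With the replicate number as a block, 644, 927, 9156 and 427 genes were called in these comparisons. DCN values stayed at 1.12, -2.23, -1.69 and 3.35, while CHST3, TGFB2, COL12A1, CSPG5, SDC4, BMP1, VIM and CHGA lost their calls (adjusted p = 0.0683, 0.0744, 0.0544, 0.0536, 0.0731, 0.0715, 0.0569 and 0.0626). A crossed block in SH-SY5Y cells, chosen after the data were seen, called 1142, 1499, 9768 and 825.

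Limits are 2 arrays a group, 1 TRPM7 shRNA, and a spread shared by all groups. For BGN in SH-SY5Y cells, the adjusted p of 0.00719 with the shared spread was 0.524 with SH-SY5Y arrays alone. Changes next to the background depended in size on the background correction: DCN ILMN_1683194 had -2.89 in SH-EP2 cells with it and -0.46 without it.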
